A study of Rattus norvegicus with 16 samples.

Results

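ATP-binding cassette (ABC) transporters other than the exporters of bile acids and bile components were followed in the liver of septic rats under isoflurane or propofol anesthesia. Every gene symbol that begins with Abca to Abcg followed by a number was taken, apart from Abcb11, Abcb4, Abcc2 and Abcc3, which move bile acids, phospholipid and conjugates into bile or blood. This gave 41 genes of the 17055 symbols counted, and the rule goes by name alone. Subfamily A has 8 of them, B has 7, C has 8, D has 4, E has 1, F has 3 and G has 10.

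Liver RNA came from 48 male Sprague-Dawley rats aged 10 weeks, pooled by 3 into 16 libraries, so that each of 4 groups had 4 libraries and a spread between libraries is a spread between pools of rats. Sepsis was made by cecal ligation and puncture (CLP), and controls had the same celiotomy with the cecum taken out and put back. Libraries 1 to 4 were Isoflurane-Sepsis and 5 to 8 isoflurane control, from rats that received isoflurane both for induction and maintenance, while libraries 9 to 12 were Propofol-Sepsis and 13 to 16 propofol control, from rats given ketamine and xylazine first and a propofol infusion afterwards. The deposited files of the anesthetics also carry different laboratory codes, so anesthetic, induction drug and laboratory code cannot be told apart. The study asked how the response of the liver to sepsis differs with the anesthetic.

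ABC proteins use the binding and hydrolysis of ATP to move a substrate across a membrane, and most carry pairs of membrane domains and ATP-binding domains, either in a single chain or as half-transporters that dimerise. In liver they lie in the sinusoidal and canalicular membranes of hepatocytes, in peroxisomes, mitochondria and lysosomes, and in endothelial cells and macrophages, where they handle drugs, conjugates, sterols, fatty acids, heme and cobalamin. Members of subfamilies E and F have no membrane domain and act on the ribosome instead. During inflammation the liver is known to change many of its transporters and drug-metabolising enzymes.

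Between 14199422 and 49937173 reads per library lay on genes, and the 6 hepatocyte markers summed to between 129119 and 173501 counts scaled to a common library size (CPM) in every library, which fits the labelled tissue. Library 10, of the Propofol-Sepsis group, stood apart. A list of 18 brain markers, written after the values had been seen, summed to 433 CPM there and to between 9.12 and 34.2 CPM in the other 15 libraries. Values of a number of members under propofol are therefore given with and without this library, and its part in them was not tested beyond that. Values of partner genes, of the bile exporters and of Tap1 are given with it alone. Among 10 markers of neutrophils and monocytes, of which Ly6c was at 0 in every library, the summed level was 20.3 to 22.6 CPM in isoflurane control and 43.1 to 126 CPM in Isoflurane-Sepsis, against 24.3 to 32.9 CPM in propofol control and 44.6 to 59.6 CPM in Propofol-Sepsis. The sum of 6 endothelial markers went the other way, from 159 to 195 CPM down to 111 to 129 CPM under isoflurane and from 188 to 226 CPM down to 158 to 164 CPM under propofol, with 4 of the 6 called lower and 0 higher under isoflurane, and 2 lower and 1 higher under propofol. By the test on single genes 6 of 7 tested neutrophil and monocyte markers rose under isoflurane and 4 of 8 under propofol. The 6 markers of Kupffer cells and macrophages overlapped in their sum between sepsis and control under both anesthetics, at 239 to 345 CPM over the 16 libraries, with 4 called higher and 1 lower under isoflurane and 1 higher and 1 lower under propofol. These are bulk tissue values, in which fewer cells of a type and less RNA per cell cannot be told apart.

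Of the 41 genes, 34 had enough reads to be tested for sepsis against control within each anesthetic. In the Isoflurane-Sepsis group 25 of the 34 changed (edgeR quasi-likelihood test, Benjamini-Hochberg adjusted p below 0.05), 6 higher and 19 lower, where 50.0% of all 10361 genes tested changed, 25.7% higher and 24.4% lower. In the Propofol-Sepsis group 19 of the 34 changed, 5 higher and 14 lower, against a background of 42.1%, with 20.4% higher and 21.7% lower. The median log2 fold change of the tested transporters was -0.50 under isoflurane and -0.17 under propofol, while that of all genes was 0.0061 and -0.0016. Directions are relative to the scaling. By library totals alone 3 members were higher and 17 lower under propofol, where 4375 of 10348 genes were called. Under isoflurane 5 were higher and 19 lower in that setting, where 5206 of 10361 genes were called.

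The direction was shared where a change was called under both anesthetics. Of the called genes 14 fell under both, among them Abcb1a, Abcb6, Abcb10, Abcc4, Abcc6, Abcd2, Abcd3, Abcd4, Abcg2, Abcg3, Abcg3l1, Abcg3l4 and Abcg5, and 5 rose under both, which were Abca1, Abca5, Abcb1b, Abcc9 and Abcg1. Of the 10182 genes tested under both anesthetics 15.1% fell under both and 14.3% rose under both. A further 5 were called lower under isoflurane alone, among them Abca2, Abcb8, Abcg3l3 and Abcg8, and Abcc5 was called higher under isoflurane alone, where 9.38% and 11.1% of all genes were. Neither comparison called 9 members, and 37.1% of all genes. By subfamily, Abcd2, Abcd3 and Abcd4 fell under both anesthetics and no member of E or F passed the test. Of 8 tested members of G 7 fell under isoflurane and 5 under propofol, where 24.4% and 21.7% of all genes fell. The 7 include Abcg3, Abcg3l1, Abcg3l3 and Abcg3l4, whose reads may be shared between copies. Whether sepsis changed a gene unequally under isoflurane and propofol was tested for 35 members, and 1 passed, where 2.72% of all genes did.

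**Figure D1:**
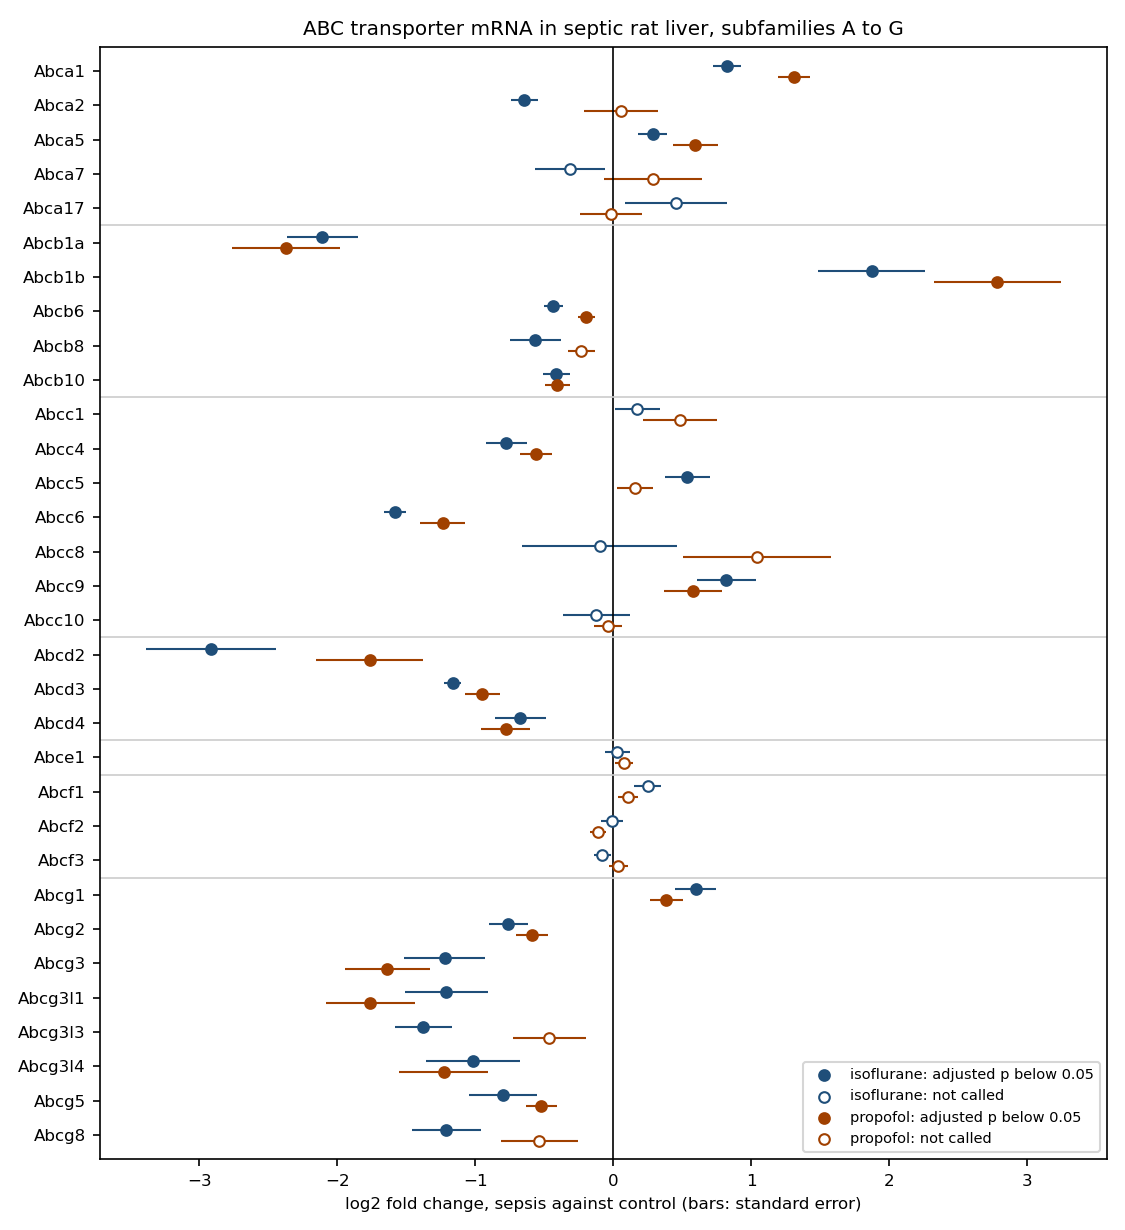
Log2 fold change of sepsis against control for tested ABC genes, listed by subfamily A to G, with isoflurane in blue and propofol in brown, bars for the standard error, and filled points for an adjusted p below 0.05. Abcb1a lies near -2 and Abcb1b near 2 to 3 under both anesthetics, Abcd2, Abcd3 and Abcd4 lie left of 0, and those of E and F lie close to 0.

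The widest changes among transporters of drugs and conjugates were in the Abcb1 pair, whose genes encode the P-glycoproteins that pump drugs and other hydrophobic compounds out of cells. Rodents carry this pump as 2 genes, Abcb1a and Abcb1b, which are neighbours on chromosome 4, next to Abcb4. Because the coding sequences are alike, reads could be split between these genes by the counting, and values for each are uncertain to that extent. In sepsis Abcb1a fell and Abcb1b rose under both anesthetics.

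The windows around the start sites of the pair are shown because the genes went in opposite directions. They are the 250 bases before and 50 bases after each start as given by RefSeq on the GRCr8 assembly, which is not the build of the authors, at chr4:26397599-26397898 for Abcb1a and chr4:26279980-26280279 for Abcb1b, both on the minus strand and written 5′ to 3′, with motif matches in capitals.
Abcb1a: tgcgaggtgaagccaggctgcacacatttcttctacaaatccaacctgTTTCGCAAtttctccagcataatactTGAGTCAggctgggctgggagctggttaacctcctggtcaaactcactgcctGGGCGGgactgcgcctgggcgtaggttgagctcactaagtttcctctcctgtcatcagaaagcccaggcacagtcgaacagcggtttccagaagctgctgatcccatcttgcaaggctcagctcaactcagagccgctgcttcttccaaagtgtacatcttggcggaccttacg
Abcb1b: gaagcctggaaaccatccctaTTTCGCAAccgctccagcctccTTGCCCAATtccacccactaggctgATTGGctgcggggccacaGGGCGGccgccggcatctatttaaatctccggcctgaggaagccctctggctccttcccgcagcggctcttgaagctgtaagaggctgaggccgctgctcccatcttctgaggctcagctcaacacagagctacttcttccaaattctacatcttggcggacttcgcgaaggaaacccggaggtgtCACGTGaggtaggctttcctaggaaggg
Searched on both strands were the motifs of AP-1 (TGANTCA), C/EBP (TTGCNNAA), the E-box (CACGTG), the CCAAT box (CCAAT) and the GC box (GGGCGG). The Abcb1a window holds an AP-1 match from base -176 to -170 and the Abcb1b window holds none, while the Abcb1b window holds an E-box from base 23 to 28 after the start, where Abcb1a has no match. Both hold a C/EBP match, in Abcb1b 2 of them, with the second sharing letters with a CCAAT box. Of 33365 distinct windows of this length, 7.34% hold the AP-1 letters, 6.43% the E-box, 10.6% the C/EBP letters, 37.5% the CCAAT box and 33.1% the GC box. The longest run of letters shared by both windows is 15 bases.

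Abcb1a measured 17.99, 15.8, 16.4 and 18.1 CPM in the 4 isoflurane control libraries and 2.23, 3.43, 6.21 and 3.77 CPM in Isoflurane-Sepsis. Under propofol its values were 12.7, 10.3, 19.8 and 7.87 CPM in control and 3.35, 3.76, 1.56 and 1.26 CPM in sepsis. Every sepsis library was below every control library of the same anesthetic, with library 15 the highest of the propofol controls. The log2 fold change was -2.11 ± 0.25 (SE, adjusted p = 0.000325) under isoflurane and -2.37 ± 0.39 (SE, adjusted p = 0.00115) under propofol, and -2.70 (adjusted p = 0.000627) under propofol without library 10.

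Abcb1b measured 16.6, 12.99, 13.6 and 15.9 CPM in isoflurane control and 29.99, 28.4, 53.9 and 101 CPM in Isoflurane-Sepsis. In propofol control it was at 3.96, 3.09, 3.40 and 2.32 CPM, and in Propofol-Sepsis at 40.5, 8.91, 26.6 and 12.3 CPM. The groups did not overlap within an anesthetic, the sepsis libraries varied most among themselves, with library 4 the highest and library 10 the lowest, and the propofol controls were below the isoflurane controls. The log2 fold change was 1.87 ± 0.39 (SE, adjusted p = 0.00417) under isoflurane and 2.79 ± 0.46 (SE, adjusted p = 0.00123) under propofol, with 3.04 (adjusted p = 0.000254) under propofol when library 10 was left out. For the difference between the anesthetics the values were 0.26 ± 0.49 (SE, adjusted p = 0.774) for Abcb1a and -0.92 ± 0.65 (SE, adjusted p = 0.396) for Abcb1b.

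As a share of the summed Abcb1a and Abcb1b level, Abcb1b took 45.1 to 48.0% in isoflurane control and 14.7 to 23.8% in propofol control. In sepsis the share was 89.2 to 96.4% under isoflurane and 70.3 to 94.5% under propofol, where library 10 gave the 70.3% and the other 3 libraries 90.7 to 94.5%. The sum of both was 28.8 to 34.6 CPM in isoflurane control and 31.8 to 104 CPM in Isoflurane-Sepsis, and 10.2 to 23.2 CPM and 12.7 to 43.9 CPM under propofol, so that the groups overlapped in the sum but not in the share. The share is one of reads, with no correction for transcript length, so it compares groups and not the levels of both genes, and it was not tested. The summed level of the endothelial markers was lower in sepsis, as Abcb1a was, although under propofol 2 of the 6 were called lower and 1 higher, and their part in its fall was not tested.

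**Figure D2:**
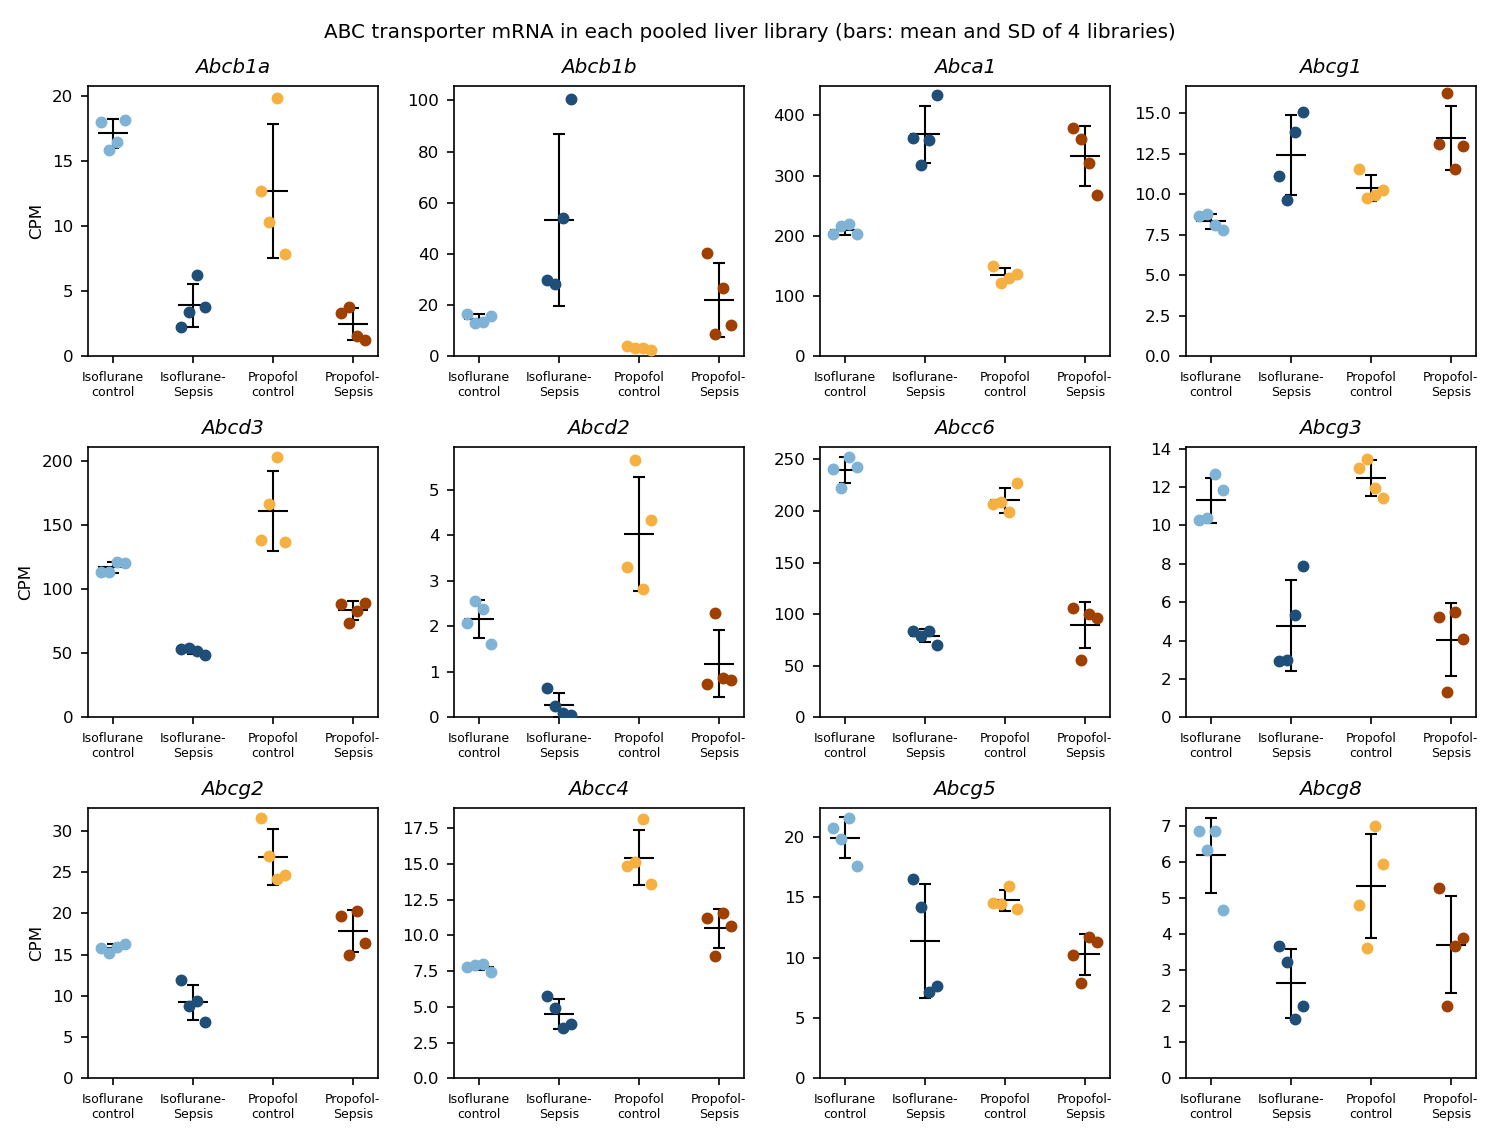
CPM of 12 ABC genes in each of the 16 libraries, on a linear axis that starts at 0, with groups along the horizontal axis and bars for the mean and SD of 4 libraries. Abcb1a goes down and Abcb1b up with sepsis under both anesthetics, and Abcd3 and Abcc6 show no overlap between sepsis and control.

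Abcc6, known for its role in the release of ATP from hepatocytes and for the disorder pseudoxanthoma elasticum, had 241, 222, 252 and 243 CPM in isoflurane control, 83.6, 78.9, 83.8 and 70.2 in Isoflurane-Sepsis, 207, 209, 199 and 227 in propofol control and 106, 56.03, 99.9 and 96.3 in Propofol-Sepsis. Sepsis libraries lay far below their controls, with library 10 the lowest under propofol. The log2 fold change was -1.58 ± 0.079 (SE, adjusted p = 1.01e-05) under isoflurane and -1.24 ± 0.16 (SE, adjusted p = 0.000372) under propofol, and -1.07 (adjusted p = 1.20e-05) without library 10. In that setting the difference between the anesthetics was also called, at -0.52 (adjusted p = 0.0276), while with all libraries it was -0.36 ± 0.19 (SE, adjusted p = 0.270).

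Abcc4, an exporter of conjugates and cyclic nucleotides at the sinusoidal membrane, measured 7.82, 7.92, 7.98 and 7.43 CPM in isoflurane control, 5.75, 4.91, 3.52 and 3.83 in Isoflurane-Sepsis, 14.8, 15.1, 18.2 and 13.6 in propofol control and 11.2, 8.53, 11.6 and 10.7 in Propofol-Sepsis. It fell under both anesthetics, with log2 fold changes of -0.77 ± 0.15 (SE, adjusted p = 0.00279) and -0.56 ± 0.11 (SE, adjusted p = 0.00357), and the propofol controls stood above the isoflurane controls. Abcg2, the breast cancer resistance protein that exports drugs and urate, had 15.8, 15.2, 15.97 and 16.2 CPM in isoflurane control, 11.9, 8.79, 9.36 and 6.77 in Isoflurane-Sepsis, 31.5, 26.9, 24.2 and 24.7 in propofol control and 19.6, 14.96, 20.2 and 16.4 in Propofol-Sepsis. Its log2 fold change was -0.76 ± 0.14 (SE, adjusted p = 0.00254) under isoflurane and -0.59 ± 0.12 (SE, adjusted p = 0.00305) under propofol, with no overlap between sepsis and control.

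The rodent Abcg3 genes are relatives of Abcg2, among which Abcg3 and Abcg3l3, and Abcg3l2 and Abcg3l4, are neighbours on chromosome 14, and their reads may be shared between copies by the counting, so the copies are uncertain one by one. Abcg3 itself measured 10.3, 10.4, 12.7 and 11.9 CPM in isoflurane control, 2.92, 2.97, 5.33 and 7.89 in Isoflurane-Sepsis, 12.97, 13.5, 11.9 and 11.4 in propofol control and 5.22, 1.33, 5.49 and 4.08 in Propofol-Sepsis. It fell, with a log2 fold change of -1.22 ± 0.29 (SE, adjusted p = 0.00845) under isoflurane and -1.64 ± 0.31 (SE, adjusted p = 0.00242) under propofol, or -1.36 (adjusted p = 6.06e-05) without library 10, which was the lowest library. The copies Abcg3l1, Abcg3l3 and Abcg3l4 stayed at or under 2.31 CPM in every library.

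For Abcg3l1 the libraries held 1.65, 1.03, 1.49 and 1.39 CPM in isoflurane control, 0.297, 0.905, 0.569 and 0.648 in Isoflurane-Sepsis, 0.843, 1.93, 0.959 and 1.06 in propofol control and 0.341, 0.334, 0.431 and 0.307 in Propofol-Sepsis. Those of Abcg3l3 were 2.26, 2.31, 2.05 and 1.85 CPM in isoflurane control, 0.991, 0.517, 0.828 and 0.825 in Isoflurane-Sepsis, 1.17, 0.875, 1.44 and 1.84 in propofol control and 1.08, 1.10, 0.969 and 0.768 in Propofol-Sepsis. For Abcg3l4 the libraries held 1.46, 1.52, 1.59 and 1.70 CPM in isoflurane control, 0.397, 1.03, 1.24 and 0.412 in Isoflurane-Sepsis, 1.10, 1.28, 0.863 and 1.40 in propofol control and 0.397, 0.238, 0.700 and 0.614 in Propofol-Sepsis. Abcg3l1 and Abcg3l4 had no overlap between sepsis and control under either anesthetic, and Abcg3l3 had none under isoflurane but overlapped under propofol. Their log2 fold changes under isoflurane were -1.21, -1.37 and -1.01 in that order, with adjusted p-values of 0.00975, 0.000909 and 0.0339. Under propofol they were -1.76, -0.46 and -1.23, with 0.00216, 0.179 and 0.0127, so Abcg3l3 was not called there. The call of Abcg3l4 under isoflurane did not hold when any of 6 of the 8 libraries was left out, with an adjusted p of up to 0.0851.

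The remaining exporters of this kind changed less. Abcc5, an exporter of nucleotide analogs and of heme, was called higher under isoflurane (0.54 ± 0.16 SE, adjusted p = 0.0224) and measured 0.16 ± 0.13 (SE, adjusted p = 0.354) under propofol, or 0.048 (adjusted p = 0.760) without library 10. The first call was lost without isoflurane control library 6, 7 or 8, at an adjusted p of up to 0.0629. Abcc1, which exports glutathione conjugates, had log2 fold changes of 0.17 ± 0.16 (SE, adjusted p = 0.401) and 0.49 ± 0.27 (SE, adjusted p = 0.167), the latter 0.15 (adjusted p = 0.548) without library 10. Abcc10, a relative of Abcc1, had -0.12 ± 0.24 (SE, adjusted p = 0.702) and -0.040 ± 0.10 (SE, adjusted p = 0.772). Of the 12 exporters tested in this group 8 fell and 2 rose under isoflurane, and 7 fell and 1 rose under propofol, with medians of -0.89 and -0.57. The 8 include Abcg3, Abcg3l1, Abcg3l3 and Abcg3l4, and the 7 include Abcg3, Abcg3l1 and Abcg3l4, whose reads may be shared between copies. Across all genes 24.4% fell and 25.7% rose under isoflurane, and 21.7% fell and 20.4% rose under propofol.

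Receptors and enzymes of the same detoxification pathway were counted beside them, in a list of 12 genes. Of these 7 fell and 1 rose under isoflurane, where 24.4% of all genes fell and 25.7% rose. Under propofol 11 fell, where 21.7% of all genes did. Nr1i3, the constitutive androstane receptor that controls drug-metabolising enzymes and exporters, had a log2 fold change of -3.40 ± 0.51 (SE, adjusted p = 0.000857) under isoflurane and -5.10 ± 0.49 (SE, adjusted p = 8.87e-05) under propofol. Its mean was 4.16 ± 1.33 CPM in isoflurane control and 12.75 ± 4.28 CPM in propofol control (SD, n = 4). In sepsis it was near the floor under both, at 0.381 ± 0.358 and 0.394 ± 0.430 CPM. The log2 difference between controls was -1.59 (edgeR, adjusted p = 0.0007455), so the 2 fold changes started from unlike levels. The Nr1i3 target Cyp2b1 had -3.07 ± 0.51 (SE, adjusted p = 0.00138) and -2.18 ± 0.23 (SE, adjusted p = 0.000120). The pregnane X receptor Nr1i2 had -1.27 ± 0.19 (SE, adjusted p = 0.000886) under isoflurane, and the aryl hydrocarbon receptor Ahr -1.02 ± 0.086 (SE, adjusted p = 4.86e-05) under propofol. Both also had lower means in sepsis under the other anesthetic. Nr1i2 went from 178.5 ± 29.4 to 95.7 ± 10 CPM under propofol, and Ahr from 28.8 ± 2.13 to 18.3 ± 8.11 CPM under isoflurane. Of the 12 genes 1 had a response that differed between the anesthetics, Nfe2l2 (0.79 ± 0.16 SE, adjusted p = 0.0249), where 2.72% of all genes did. Its mean went from 56.7 ± 1.37 to 69.2 ± 14.8 CPM under isoflurane and from 64.4 ± 2.66 to 45.5 ± 5.07 CPM under propofol (SD, n = 4).

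Among transporters of sterols and phospholipids, 3 rose and 3 fell of 7 tested under isoflurane, and 3 rose and 1 fell under propofol. Over all genes 25.7% rose and 24.4% fell under isoflurane, and 20.4% rose and 21.7% fell under propofol. The transporters of this group that rose, Abca1, Abca5 and Abcg1, include the pumps that load cholesterol onto apolipoproteins and high-density lipoprotein. Of Abcg5 and Abcg8, whose products pair to secrete cholesterol into bile, the first fell under both anesthetics and the second under isoflurane.

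Abca1, which hands cholesterol and phospholipid to apolipoprotein A-I, measured 204, 216, 219 and 203 CPM in isoflurane control and 363, 318, 359 and 433 CPM in Isoflurane-Sepsis. Under propofol it measured 149, 122, 131 and 136 CPM in control and 379.6, 360, 321 and 267 CPM in sepsis. The groups did not overlap and the propofol controls were the lowest of the 4 groups. The log2 fold change was 0.83 ± 0.10 (SE, adjusted p = 0.000379) under isoflurane and 1.31 ± 0.12 (SE, adjusted p = 5.63e-05) under propofol, and for the difference between them -0.49 ± 0.16 (SE, adjusted p = 0.0940). DESeq2 called that difference, at -0.48 (adjusted p = 0.0482).

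Abcg1, which exports cholesterol to mature lipoproteins and is abundant in macrophages, had 8.66, 8.76, 8.08 and 7.81 CPM in isoflurane control, 11.1, 9.63, 13.8 and 15.1 in Isoflurane-Sepsis, 11.6, 9.75, 9.92 and 10.2 in propofol control and 13.1, 16.2, 11.6 and 12.99 in Propofol-Sepsis. It rose under isoflurane, with a log2 fold change of 0.60 ± 0.15 (SE, adjusted p = 0.00991), and under propofol, with 0.39 ± 0.12 (SE, adjusted p = 0.0251), or 0.28 (adjusted p = 0.0376) without library 10, the highest; the propofol call was lost without control library 14, 15 or 16, at an adjusted p of up to 0.0649, and by library totals alone, at 0.0510. Abca5, a lysosomal relative of Abca1, had 5.65, 5.51, 6.02 and 4.96 CPM in isoflurane control, 6.20, 7.24, 6.83 and 6.36 in Isoflurane-Sepsis, 4.09, 3.21, 3.74 and 3.29 in propofol control and 5.28, 6.53, 5.49 and 4.30 in Propofol-Sepsis. It rose, with 0.29 ± 0.11 (SE, adjusted p = 0.0491) under isoflurane and 0.60 ± 0.16 (SE, adjusted p = 0.0153) under propofol, but the isoflurane call was lost when any library but library 1 was left out, at an adjusted p of up to 0.150, and by library totals alone (0.119), by DESeq2 (0.0563), without a low-count filter (0.104) and in the fit of all 16 libraries (0.0734). The markers of neutrophils and monocytes given above rose with sepsis as these genes did, those of Kupffer cells and macrophages overlapped in their sum, with 4 of 6 higher and 1 lower under isoflurane and 1 higher and 1 lower under propofol, and the part of either in these rises was not tested.

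Abcg5 and Abcg8 stand head to head on chromosome 6, with 206 bases between their start sites, and their windows share 295 of 300 bases on opposite strands. The Abcg5 window, at chr6:15717686-15717985 on the plus strand of GRCr8, is shown because it holds the start of both genes, again with motif matches in capitals.
Abcg5: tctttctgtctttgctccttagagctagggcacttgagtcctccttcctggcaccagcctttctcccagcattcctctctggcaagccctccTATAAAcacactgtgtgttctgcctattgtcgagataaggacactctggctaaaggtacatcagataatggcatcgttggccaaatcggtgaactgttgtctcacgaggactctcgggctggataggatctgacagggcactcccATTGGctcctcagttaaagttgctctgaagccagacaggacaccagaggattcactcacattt
It holds TATAAA from base -158 to -153 before the Abcg5 start and a CCAAT box on the opposite strand from base -13 to -9. The TATA letters are found in 14.2% of all windows. The spaced direct repeat bound by liver X receptors (DR4) was found in 0 of the 34 windows available for these transporters, and in 0.00599% of all windows, a share that leaves no comparison to be made.

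The libraries had 20.8, 19.8, 21.6 and 17.6 CPM in isoflurane control, 16.5, 14.2, 7.14 and 7.66 in Isoflurane-Sepsis, 14.5, 14.5, 15.96 and 14.01 in propofol control and 10.2, 7.86, 11.7 and 11.3 in Propofol-Sepsis of Abcg5. For Abcg8 they had 6.87, 6.35, 6.86 and 4.68 CPM in isoflurane control, 3.67, 3.23, 1.66 and 2.00 in Isoflurane-Sepsis, 4.80, 3.62, 7.00 and 5.94 in propofol control and 5.28, 2.00, 3.66 and 3.90 in Propofol-Sepsis. In both genes libraries 3 and 4 were the lowest of Isoflurane-Sepsis and library 10 the lowest of Propofol-Sepsis, and under propofol the groups overlapped for Abcg8 but not for Abcg5. Abcg5 fell, with a log2 fold change of -0.80 ± 0.25 (SE, adjusted p = 0.0248) under isoflurane and -0.52 ± 0.11 (SE, adjusted p = 0.00515) under propofol, although the isoflurane call was lost without control library 5, 6 or 7, at an adjusted p of up to 0.0631, and the propofol call was lost in the fit of all 16 libraries, at 0.0643. Abcg8 fell, with a log2 fold change of -1.21 ± 0.25 (SE, adjusted p = 0.00398) under isoflurane and measured -0.53 ± 0.28 (SE, adjusted p = 0.150) under propofol, or -0.34 (adjusted p = 0.236) without library 10.

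Abca2, a lipid transporter most abundant in oligodendrocytes, measured 27.2, 30.3, 31.2 and 32.7 CPM in isoflurane control, 21.96, 17.3, 17.7 and 19.97 in Isoflurane-Sepsis, 30.6, 29.8, 25.2 and 31.2 in propofol control and 27.3, 50.9, 19.5 and 22.8 in Propofol-Sepsis. Library 10 was the highest of all 16, and the other 3 Propofol-Sepsis libraries lay between 19.5 and 27.3 CPM. Abca2 fell under isoflurane (-0.64 ± 0.10 SE, adjusted p = 0.000887), and under propofol its log2 fold change was 0.055 ± 0.27 (SE, adjusted p = 0.886), which became -0.33 (adjusted p = 0.0521) without library 10. Abca7, a relative of Abca1 tied to phagocytosis and lipid handling in brain, had -0.31 ± 0.25 (SE, adjusted p = 0.326) under isoflurane and 0.29 ± 0.35 (SE, adjusted p = 0.535) under propofol, with 6.24 CPM in library 10 against 2.10 to 2.48 CPM in the rest of its group. Without that library the propofol value of Abca7 was -0.23 (adjusted p = 0.307).

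In a list of 18 genes of cholesterol efflux and the liver X receptor, 10 fell and 2 rose under isoflurane, and 9 fell and 3 rose under propofol. Among all genes 24.4% fell and 25.7% rose under isoflurane, and 21.7% fell and 20.4% rose under propofol. Nr1h3, the liver X receptor alpha that drives Abca1, Abcg1, Abcg5 and Abcg8, had -0.93 ± 0.10 (SE, adjusted p = 0.000168) under isoflurane, and its partner Rxra had -1.19 ± 0.15 (SE, adjusted p = 0.000409) and -0.81 ± 0.079 (SE, adjusted p = 9.42e-05) under isoflurane and propofol. Soat2, which esterifies cholesterol in hepatocytes, fell most in the list under both, with -1.46 ± 0.10 (SE, adjusted p = 3.86e-05) and -1.39 ± 0.14 (SE, adjusted p = 0.000113). Npc1, which lets cholesterol out of lysosomes, had -1.23 ± 0.13 (SE, adjusted p = 0.000143) under propofol, and Scarb1, the receptor for high-density lipoprotein, -0.90 ± 0.081 (SE, adjusted p = 0.000102) under isoflurane. The other anesthetic showed lower means too. Npc1 went from 93.95 ± 11.3 to 57.4 ± 6.70 CPM under isoflurane, and Scarb1 from 79.7 ± 5.82 to 46.9 ± 4.72 CPM under propofol. Soat1 went the other way, with 0.88 ± 0.22 (SE, adjusted p = 0.0107) under propofol. Its mean went from 2.25 ± 0.403 to 4.11 ± 1.11 CPM there and from 3.405 ± 0.543 to 5.46 ± 1.01 CPM under isoflurane (SD, n = 4).

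In subfamily D, Abcd2, Abcd3 and Abcd4 fell under both anesthetics. Abcd2 and Abcd3 bring fatty acyl-CoA into the peroxisome for beta-oxidation, and Abcd4 acts in the lysosomal release of cobalamin. Each of these calls held when any library was left out.

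Abcd3, which carries branched-chain fatty acids and bile acid precursors, measured 114, 113, 121 and 121 CPM in isoflurane control, 53.1, 53.99, 51.7 and 48.4 in Isoflurane-Sepsis, 138, 166, 204 and 137 in propofol control and 88.3, 73.7, 82.8 and 89.2 in Propofol-Sepsis. The sepsis libraries under isoflurane lay within a narrow range, and no sepsis library of either anesthetic reached its controls, of which library 15 was the highest. Its log2 fold change was -1.16 ± 0.062 (SE, adjusted p = 1.05e-05) under isoflurane and -0.95 ± 0.12 (SE, adjusted p = 0.000372) under propofol.

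Abcd2, which takes very long-chain and polyunsaturated fatty acids, measured 2.07, 2.56, 2.38 and 1.62 CPM in isoflurane control, 0.644, 0.259, 0.103 and 0.0589 in Isoflurane-Sepsis, 3.31, 5.66, 2.83 and 4.35 in propofol control and 0.738, 2.29, 0.861 and 0.83 in Propofol-Sepsis. These are low counts, with 20 reads in all 4 Isoflurane-Sepsis libraries together and 224 in their controls. The controls were sequenced deeper, with a median of 21951694 reads on genes against 19370593, and with 49937173 in library 8. Raw reads therefore do not give the fold change. Under propofol library 10 stood above the other 3 sepsis libraries and still below every control. The log2 fold change was -2.92 ± 0.47 (SE, adjusted p = 0.00123) under isoflurane and -1.76 ± 0.39 (SE, adjusted p = 0.00547) under propofol, or -2.30 (adjusted p = 0.000250) without library 10.

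Abcd4 measured 4.33, 3.25, 5.13 and 4.93 CPM in isoflurane control, 2.88, 2.20, 2.59 and 3.30 in Isoflurane-Sepsis, 4.99, 5.89, 5.66 and 6.28 in propofol control and 3.92, 2.19, 3.66 and 3.56 in Propofol-Sepsis. Under isoflurane its control library 6 was just below sepsis library 4, and the log2 fold change was -0.67 ± 0.18 (SE, adjusted p = 0.0142), while under propofol the groups did not overlap and it was -0.78 ± 0.18 (SE, adjusted p = 0.00652).

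The enzymes these peroxisomal transporters feed, with the factors that build the organelle, were lower as well. Of all genes 24.4% were called lower under isoflurane and 21.7% under propofol. In this list 22 of 27 tested genes were called lower and 0 higher under each anesthetic, where 5 were not called. Acot4, a peroxisomal thioesterase for dicarboxylic acids, fell most under both, with -2.43 ± 0.22 (SE, adjusted p = 0.000109) and -2.22 ± 0.38 (SE, adjusted p = 0.00134). Crot, which makes carnitine esters for export to mitochondria, had -2.23 ± 0.16 (SE, adjusted p = 3.97e-05) under isoflurane, and its response differed between the anesthetics (-1.54 ± 0.21 SE, adjusted p = 0.00545). Of the 27 genes 1 other had such a difference, the peroxin Pex13, in the opposite direction (0.66 ± 0.13 SE, adjusted p = 0.0217). Acox2, an oxidase for bile acid intermediates, had -1.97 ± 0.51 (SE, adjusted p = 0.0114) under isoflurane, and Ehhadh, the bifunctional enzyme of the pathway, -1.33 ± 0.33 (SE, adjusted p = 0.00982) under propofol. Means were lower under the other anesthetic as well. Crot went from 23.61 to 14.55 CPM and Acox2 from 338.4 to 218.3 CPM under propofol, and Ehhadh from 53.05 to 28.46 CPM under isoflurane. Of 8 genes of cobalamin handling 4 fell under isoflurane and 3 under propofol, where 24.4% and 21.7% of all genes fell. Among these cobalamin genes was Mmachc, the cytosolic partner of Abcd4, with -0.73 ± 0.13 (SE, adjusted p = 0.00170) and -0.48 ± 0.15 (SE, adjusted p = 0.0299).

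Abcb6, Abcb8 and Abcb10 are half-transporters tied to heme and iron in mitochondria. They fell under isoflurane, and Abcb6 and Abcb10 also fell under propofol.

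Abcb10, which supports heme synthesis, fell, with log2 fold changes of -0.41 ± 0.10 (SE, adjusted p = 0.00727) and -0.40 ± 0.091 (SE, adjusted p = 0.00587) under isoflurane and propofol. Abcb6, a porphyrin transporter, fell, with -0.43 ± 0.072 (SE, adjusted p = 0.00147) under isoflurane and -0.19 ± 0.063 (SE, adjusted p = 0.0339) under propofol, and the propofol call was lost in 6 of 8 fits that left out a library, at an adjusted p of up to 0.0937. Abcb8, a subunit of a mitochondrial potassium channel that also takes part in iron export, had -0.56 ± 0.18 (SE, adjusted p = 0.0298) and -0.23 ± 0.10 (SE, adjusted p = 0.0868), and its isoflurane call was lost in 6 of 8 such fits, at up to 0.0723. Under propofol edgeR called Abcb8 lower by library totals alone (-0.29, adjusted p = 0.0419) and without library 11 (-0.31, adjusted p = 0.0309).

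In the list of mitochondrial iron-sulfur and heme genes 13 of 18 fell and 0 rose under isoflurane, and 9 fell and 1 rose under propofol. The shares over all genes were 24.4% lower and 25.7% higher under isoflurane, and 21.7% and 20.4% under propofol. Alas1, the rate-limiting enzyme of heme synthesis in liver, had -1.11 ± 0.079 (SE, adjusted p = 3.97e-05) under isoflurane and -1.90 ± 0.22 (SE, adjusted p = 0.000190) under propofol. Alad, the next enzyme, had -1.68 ± 0.15 (SE, adjusted p = 0.000106) and -1.25 ± 0.15 (SE, adjusted p = 0.000256). Fech, which puts iron into protoporphyrin, had -1.004 ± 0.13 (SE, adjusted p = 0.000419) under isoflurane. Under propofol its mean also went down, from 41.2 ± 2.34 CPM in control to 27.9 ± 3.48 CPM in sepsis (SD, n = 4).

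Abcc8 and Abcc9 encode the sulfonylurea receptors SUR1 and SUR2, the regulatory subunits of ATP-sensitive potassium channels, which in liver are mostly a feature of vessel walls and not of hepatocytes. Abcc9 measured 12.3, 14.1, 9.76 and 11.1 CPM in isoflurane control, 16.9, 14.3, 24.5 and 26.4 in Isoflurane-Sepsis, 17.9, 12.5, 14.2 and 14.2 in propofol control and 25.1, 29.6, 17.01 and 15.7 in Propofol-Sepsis. It rose under isoflurane without overlap, with 0.82 ± 0.21 (SE, adjusted p = 0.0116), and under propofol, where the groups overlapped, with 0.58 ± 0.21 (SE, adjusted p = 0.0494). The propofol call was lost in 5 of 8 fits that left out a library, and was 0.38 (adjusted p = 0.104) without library 10, the highest. With all libraries it was also lost by library totals alone (adjusted p = 0.0744), by limma-voom (0.0822), without a low-count filter (0.0573), at a mean CPM of at least 1 (0.0524) and in the fit of all 16 libraries (0.0517). The 9 markers of stellate cells and fibroblasts summed to 385 to 413 CPM in isoflurane control and 307 to 604 CPM in Isoflurane-Sepsis, and to 375 to 393 CPM in propofol control and 326 to 371 CPM in Propofol-Sepsis. Of them 4 were called higher and 1 lower under isoflurane, and 1 higher and 3 lower under propofol, and their part in the rise was not tested.

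Abcc8 had 343 reads in all and measured 0.706, 1.08, 1.12 and 1.03 CPM in isoflurane control, 0.297, 0.711, 2.22 and 0.353 in Isoflurane-Sepsis, 0.714, 0.817, 0.623 and 0.531 in propofol control and 1.25, 3.05, 0.538 and 0.675 in Propofol-Sepsis. Library 3 under isoflurane and library 10 under propofol stood above the rest. Its log2 fold change was -0.10 ± 0.56 (SE, adjusted p = 0.896) under isoflurane, or -1.14 (adjusted p = 0.0268) without library 3, and 1.04 ± 0.54 (SE, adjusted p = 0.142) under propofol, or 0.26 (adjusted p = 0.562) without library 10.

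Abce1, Abcf1, Abcf2 and Abcf3, the soluble members that recycle ribosomes and regulate the start of translation, did not pass the test under either anesthetic. Abce1, which splits ribosomes after termination, measured 174 ± 0.855 CPM (mean ± SD, n = 4) in isoflurane control and 176 ± 23.3 CPM in Isoflurane-Sepsis, and 184 ± 11.7 CPM and 194 ± 10.5 CPM under propofol. Its log2 fold change was 0.030 ± 0.089 (SE, adjusted p = 0.798) and 0.079 ± 0.062 (SE, adjusted p = 0.332). Abcf1, a partner of the initiation factor eIF2, had 0.25 ± 0.10 (SE, adjusted p = 0.0585) and 0.11 ± 0.074 (SE, adjusted p = 0.260), and DESeq2 called the first, at 0.26 (adjusted p = 0.0400). The edgeR fit of all 16 libraries also called it (adjusted p = 0.0285), as did edgeR fits without library 3 (0.0326) or library 4 (0.0358). Log2 fold changes of Abcf2 were -0.0081 and -0.11, and those of Abcf3 were -0.077 and 0.037, so the 4 genes together lay between -0.11 and 0.25. By library totals alone Abcf2 was called lower under propofol, at -0.17 (edgeR, adjusted p = 0.0426). Of 12 genes of translation and ribosome recycling 4 rose and 2 fell under isoflurane, and 2 rose and 1 fell under propofol, where 50.0% and 42.1% of all genes were called. Pelo, which rescues stalled ribosomes together with Abce1, had 0.75 ± 0.12 (SE, adjusted p = 0.000997) under isoflurane. Under propofol its mean was 34.5 ± 3.44 CPM in control and 38.5 ± 3.56 CPM in sepsis (SD, n = 4).

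**Figure D3:**
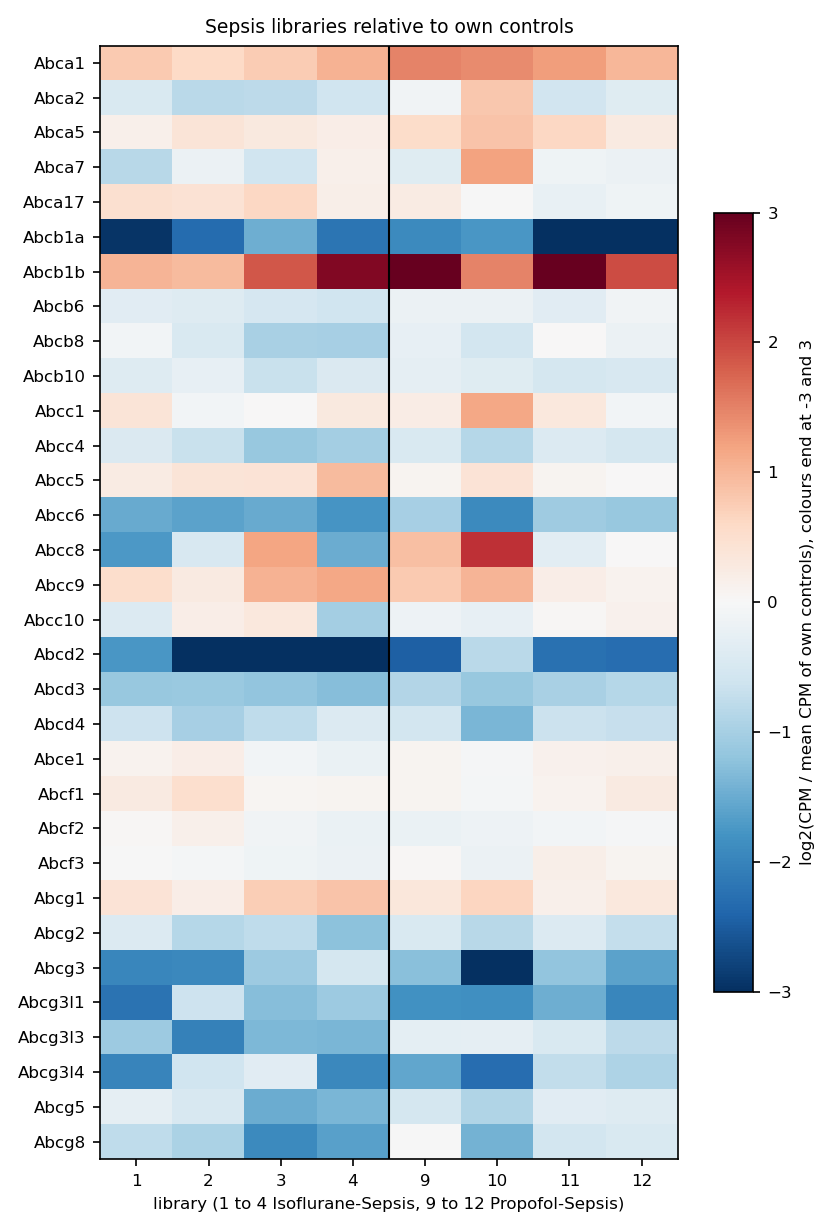
Log2 ratio of each sepsis library to the mean CPM of the controls of its own anesthetic, for tested genes by subfamily, with libraries 1 to 4 of Isoflurane-Sepsis on the left and 9 to 12 of Propofol-Sepsis on the right, red for higher and blue for lower, and colours that end at -3 and 3. Abcb1b is red and Abcb1a and Abcd2 are blue in every library. Library 10 is red for Abca2, Abca7 and Abcc1 where its group mates are pale, and for Abcc8, where library 9 is red as well.

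Members that could not be tested were close to the limit of detection. Abca4, the retinal transporter, had 80 reads over the 16 libraries, Abcb9, a lysosomal peptide transporter, had 94, Abcg3l2 had 29, Abca13 had 16 and Abcc12 had 2. Abca15 had 0 reads, which allows a level of up to 0.00862 CPM by counting error over all libraries. Abcg4, a sterol exporter of brain, had 171 reads, of which library 10 gave 2.33 CPM against 0.307 to 0.568 CPM in its group, and was tested for the difference between the anesthetics alone (-1.37 ± 0.96 SE, adjusted p = 0.395). Abca17 passed the limit on counts with 250 reads and had 0.46 ± 0.37 (SE, adjusted p = 0.326) under isoflurane and -0.017 ± 0.22 (SE, adjusted p = 0.961) under propofol. Tap1, the relative of Abcb9 that loads peptides onto class I molecules, was taken only for comparison and had 0.53 ± 0.10 (SE, adjusted p = 0.00263) and 0.18 ± 0.086 (SE, adjusted p = 0.117), and of 10 peptide-loading genes 3 rose under isoflurane and 2 under propofol, where 25.7% and 20.4% of all genes rose.

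The 4 bile exporters left out differed in their calls. Abcb11, the bile salt export pump, had -0.11 ± 0.11 (SE, adjusted p = 0.432) under isoflurane and -0.055 ± 0.050 (SE, adjusted p = 0.397) under propofol. Abcc2, the canalicular exporter of conjugates, had -1.01 ± 0.23 (SE, adjusted p = 0.00658) and -1.40 ± 0.13 (SE, adjusted p = 6.01e-05). Abcb4, the phospholipid flippase beside the Abcb1 pair on chromosome 4, had -1.20 ± 0.15 (SE, adjusted p = 0.000385) and -0.49 ± 0.094 (SE, adjusted p = 0.00251), and its difference between the anesthetics was called (-0.72 ± 0.18 SE, adjusted p = 0.0487). Abcc3, which moves conjugates back to blood, had -0.21 ± 0.14 (SE, adjusted p = 0.248) and -0.89 ± 0.15 (SE, adjusted p = 0.00134).

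Without sepsis, the isoflurane controls were compared with the propofol controls, which differ in induction drug and laboratory code as well. Of 34 members tested 14 differed, 7 higher and 7 lower under isoflurane, where 43.3% of all genes did, 21.6% higher and 21.7% lower. Scaling by library totals alone moved the median of all genes by -0.15 and gave 4 higher and 14 lower, so directions are relative to the scaling, and a fit of all 16 libraries called 9. Over all genes these settings called 4963 of 10314 and 2793 of 10621. Abcb1b had the widest difference, 14.8 ± 1.75 against 3.19 ± 0.683 CPM (mean ± SD, n = 4 each), with a log2 value of 2.23 ± 0.14 (SE, adjusted p = 4.05e-06) for isoflurane control minus propofol control.

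Also higher in isoflurane control were Abca1 (0.65 ± 0.066 SE, adjusted p = 4.01e-05), Abca5 (0.63 ± 0.11 SE, adjusted p = 0.00140) and Abcg5 (0.43 ± 0.079 SE, adjusted p = 0.00145), with Abcc6, Abcc10 and Abcg3l3 between 0.19 and 0.63. These last 3 were not called under library totals alone. Lower were Abcc4 (-0.99 ± 0.094 SE, adjusted p = 3.02e-05), Abcg2 (-0.75 ± 0.083 SE, adjusted p = 7.09e-05), Abcd2 (-0.94 ± 0.23 SE, adjusted p = 0.00769) and Abcd3 (-0.45 ± 0.11 SE, adjusted p = 0.00741), with Abcf1, Abcf2 and Abcg1 between -0.35 and -0.31. In the fit of all 16 libraries Abcc6, Abcc10, Abcd2, Abcg1 and Abcg5 lost their calls. For Abcg2 the mean was 15.8 ± 0.465 CPM in isoflurane control and 26.8 ± 3.35 CPM in propofol control, and for Abcc4 it was 7.79 ± 0.246 and 15.4 ± 1.93 CPM, and in neither gene did the groups overlap.

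For most members, then, the response to sepsis itself was not shown to differ between the anesthetics. Of the 35 tested, 34 did not pass, which does not show that the responses were alike. Their log2 differences, isoflurane minus propofol, ran from -1.37 in Abcg4 to 0.55 in Abcg3l1. Among the most negative were Abcg4, Abcd2 (-1.17 ± 0.68 SE, adjusted p = 0.307), Abcc8 (-1.16 ± 0.84 SE, adjusted p = 0.404), Abcg3l3 (-0.93 ± 0.34 SE, adjusted p = 0.126) and Abcb1b, and among the most positive Abcg3l1 (0.55 ± 0.46 SE, adjusted p = 0.474) and Abcg3 (0.41). Library 10 was the highest of its group for Abcg4, Abcd2 and Abcc8 and the lowest for Abcb1b and Abcg3, and the values of these genes under propofol without it, where tested, are given above.

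**Figure D4:**
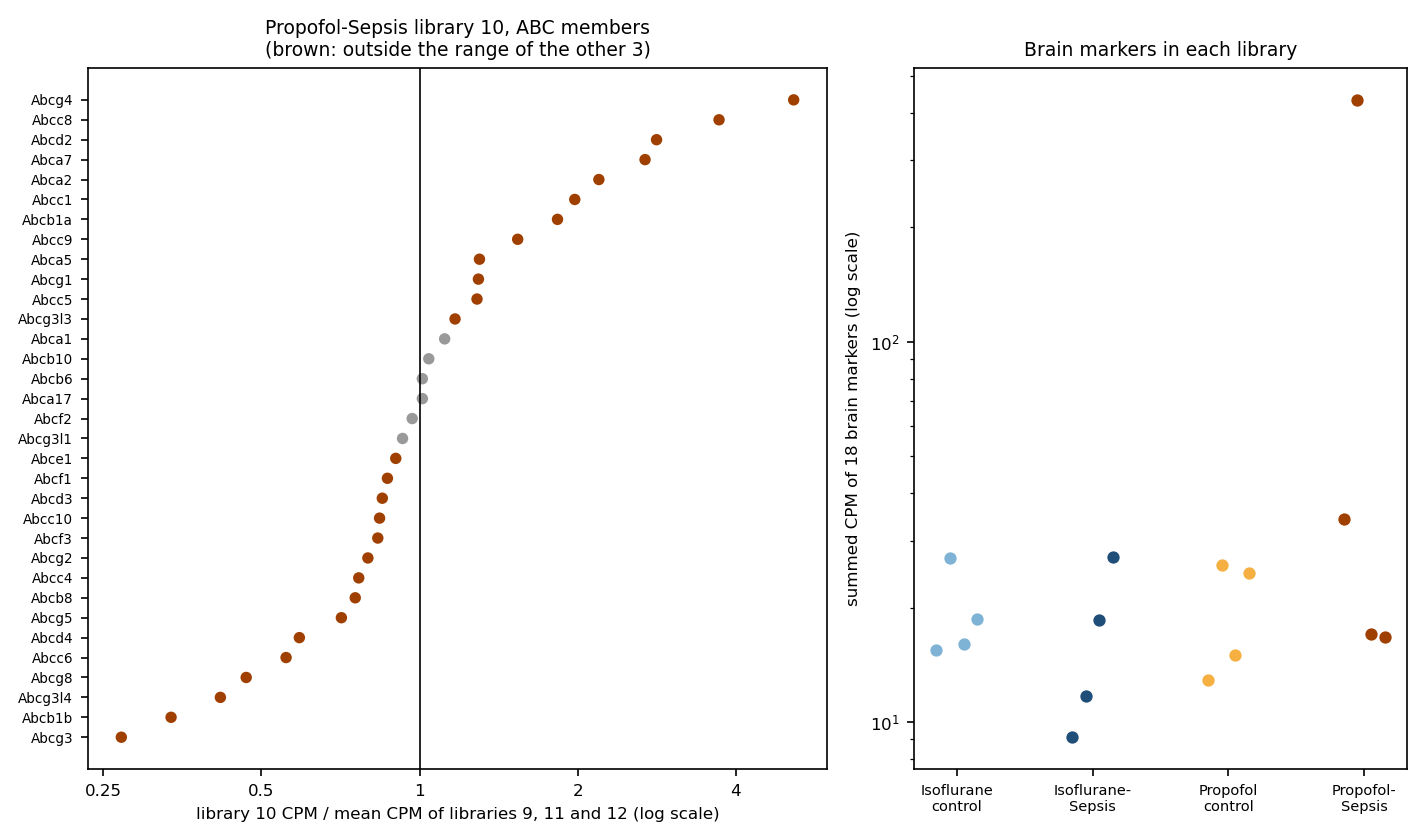
Left, CPM of tested ABC genes in library 10 divided by the mean of libraries 9, 11 and 12, on a log axis, with brown points outside the range of those 3 libraries; right, summed CPM of 18 brain markers in each library by group, on a log axis. Abcg4, Abcc8, Abcd2, Abca7 and Abca2 are the highest in library 10 and Abcg3 and Abcb1b the lowest, and the brain markers reach 433 CPM in that library.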

How the data were processed

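Poly(A) RNA of pooled rat liver (3 rats a library) was sequenced with a stranded kit. Per the labels and the submitters' processing notes, the authors aligned reads with STAR to rn5. Neither the counting program nor the annotation is named in the sources read. The deposited files hold raw read counts per gene symbol for 1 library each. Rows without a gene symbol were left out: reads on no feature were 21.6 to 25.4% and ambiguous reads 1.07 to 1.35% of each library. Sample groups came from the labels.

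CPM were computed from these counts with library totals scaled by TMM factors over all 16 libraries. Genes were kept by filterByExpr of edgeR (minimum count 10, minimum total 15). Septic libraries were set against the controls of their own anesthetic, and controls against controls, in fits of the 8 libraries concerned. The difference between the responses (isoflurane minus propofol) was fitted over all 16. The tests were edgeR 4.0.16 quasi-likelihood tests with TMM scaling in R 4.3.3, two-sided, with Benjamini-Hochberg adjustment over all genes tested and a threshold of 0.05. Alternatives were DESeq2 1.42.0, limma-voom (limma 3.58.1), other size factors, filters and thresholds, and leaving out each library. The code was tested on simulated data. There the test of the difference between the anesthetics recovered 20.9% of genes changed 1.5-fold, 58.2% of those changed 2-fold and 97.0% of those changed 4-fold. Of the simulated calls 5.96% were false under isoflurane, 6.86% under propofol, 4.88% for that difference and 3.33% between controls. Libraries of a group differed beyond counting noise (chi-square per degree of freedom of at least 3.35), so none was counted as a repeat.

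Values in every library are given for members called with a log2 change of at least 0.58 in size in a sepsis comparison or called between the anesthetics, and other members by fold changes, counts or ranges. From each list of partner genes, examples came from the 4 called genes with the largest changes, together with values of Abcb11, Abcb4, Abcc2, Abcc3 and Tap1. These 4 were picked for each comparison, so a partner gene tested in the text under 1 anesthetic alone may have changed under the other. Some members enter the counts but are not reported here by name. The members and lists were chosen with earlier results of these data known. Promoter windows came from the RefSeq table for GRCr8, in which 34 of 41 members matched. Transcript lengths of the authors' build were not used here, so levels were not compared between genes, and the share of Abcb1b in the Abcb1 pair is a share of reads.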

Additional observations from a re-analysis of the deposited data

Results flagged for a closer look

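In groups of 4 libraries, a highest or lowest value was set against the rest of its group by Dixon's test, over 140 group values of 35 members, where chance gives about 1 in 20. It picked out 5 values. In 4 of them library 10 of Propofol-Sepsis was the highest, with 6.24 CPM of Abca7 against 2.10 to 2.48 in the other 3 libraries, 10.96 CPM of Abcc5 against 8.26 to 8.69, 2.29 CPM of Abcd2 against 0.738 to 0.861, and 2.33 CPM of Abcg4 against 0.307 to 0.568. In the last, library 5 of isoflurane control was the lowest for Abcc1, with 1.84 CPM against 2.38 to 2.46.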

How the results depend on the processing

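No paired analysis was possible because the groups share no replicate numbers. Leaving out each library gave 20 to 25 called members under isoflurane, 16 to 19 under propofol, 0 to 3 for the difference between the anesthetics and 13 to 15 between controls. Over all genes the same fits called 4145 to 5668, 3501 to 4291, 54 to 1615 and 3715 to 4321 genes in that order. For the difference between the anesthetics DESeq2 called 2 members, while 0 were called without a low-count filter and 0 at an adjusted p below 0.01. Over all genes these settings called 847, 168 and 9 genes. Without library 1 Abcb6 and Abcb8 were called for that difference, and without library 4 Abca1 was. Of all genes, 1615 of 10708 were called without library 1 and 374 of 10694 without library 4, against 289 of 10621 with all libraries. Between controls the fit of all 16 libraries called 9 members, and 2793 of all 10621 genes. At an adjusted p below 0.01 the calls were 18 under isoflurane and 14 under propofol, where 3200 of 10361 and 2628 of 10348 genes were called. Members that were not called changed sign as follows, and the cause was not tested. Under isoflurane Abce1 was -0.036 by library totals alone, -4.0e-05 without a low-count filter and -0.042 to 0.094 with a library left out, where Abcc8 ran from -1.14 to 0.22, Abcf2 from -0.069 to 0.042 and Abcc10 from -0.32 to 0.078. Under propofol Abcf3 was -0.018 by library totals alone and -0.0041 to 0.094 with a library left out, and Abca2 was -0.053 by limma-voom and -0.33 to 0.22 with a library left out. There Abca7 ran from -0.23 to 0.44, Abcc10 from -0.10 to 0.017 and Abca17 from -0.11 to 0.076. Depth limits the members of low count most, such as Abcd2 with 20 reads in Isoflurane-Sepsis.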
